A study of Mus musculus with 12 samples.

Results

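Serine, one-carbon and proline synthesis was followed through 9 enzyme genes in KPC cells, a line grown from a pancreatic ductal adenocarcinoma of a genetically engineered mouse. The genes are Phgdh, Psat1 and Psph (serine synthesis), Shmt1 and Shmt2 (serine and glycine interconversion), Mthfd2 and Mthfd1l (mitochondrial folate metabolism), and Aldh18a1 and Pycr1 (proline synthesis). They were picked by name, with earlier results of these data known. They are 9 of the 15803 transcripts with a read in at least 1 library. Cells were given PBS, or cisplatin (Cis) at 20 µM for 6 h or 21 h. Every group came from the same KPC line, and the tumors behind the line were driven by alleles that Pdx1-Cre, which acts in the pancreatic lineage, switches on. Ribosome footprints and RNA-seq were each measured in 2 libraries per group, 12 libraries in all. The dose and the use of PBS come from the study's methods, whereas the labels give the control libraries as without treatment. The labels also give them no treatment time, and the same PBS libraries are the control at both times.

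Cells make serine from a glycolytic intermediate, and serine then gives a one-carbon unit to tetrahydrofolate while it becomes glycine. In mitochondria that unit is oxidized and released as formate, which feeds purine and thymidylate synthesis in the cytosol. Proline is made from glutamate by reduction, and many enzymes of these pathways are known as targets of the amino acid branch of the stress response in which the transcription factor Atf4 acts.

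Values are RPKM (reads scaled by length and by the reads of the library), with footprints taken per coding length and RNA-seq reads per transcript length. The footprint libraries held 3375480 to 5204127 reads and the RNA-seq libraries 1985344 to 2901692, of which Lars2, Tmem38b and Mettl26 took 51.8 to 56.6%. The keratins Krt8, Krt18 and Krt19 marked the cells as epithelial (lowest footprint values 3214, 1569.6 and 1608 RPKM), whereas Epcam was at 0.287 to 1.83 RPKM. Acinar, fibroblast, leukocyte and endothelial markers were scarce (summed footprint values up to 6.12, 4.18, 9.68 and 0.666 RPKM), with Cpa1, Amy2a5, Ctrb1 and Cd3e at 0 in every library. The leukocyte sum was higher at 21 h (3.57 to 9.68 RPKM) than in PBS (1.87 to 2.35 RPKM), and so was the acinar sum (6.10 to 6.12 against 1.69 to 3.23 RPKM), which came from Cela1 alone. The sum of the 8 carcinoma markers was lower at 21 h (6806 to 6928 RPKM) than in PBS (9198 to 9877 RPKM). The part of these shifts in the values of the 9 enzymes was not tested.

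In PBS, Phgdh and Psat1 had the most footprints of the 9 (410.7 ± 6.61 and 410.5 ± 20.3 RPKM, mean ± SD, n = 2 for all means here), and their libraries overlapped. Psph followed at 300.5 ± 19.1 RPKM. Shmt2 (113.6 ± 5.14), Mthfd2 (92.3 ± 5.0), Mthfd1l (64.9 ± 0.572), Aldh18a1 (58.9 ± 0.196), Shmt1 (37.2 ± 3.09) and Pycr1 (17.4 ± 0.892) came next, with no overlap between neighbours. The serine arm therefore carried the most ribosomes per coding length, and Pycr1 the fewest. The order by RNA was different. Phgdh (88.9 ± 0.139 RPKM) and Psat1 (48.4 ± 1.38) again led, but Mthfd2 (32.7 ± 2.52) lay above Psph (24.9 ± 0.296). Shmt2 (16.6 ± 0.844), Mthfd1l (16.4 ± 0.0399) and Aldh18a1 (16.0 ± 0.0566) were within each other's spread or close to it. Shmt1 (6.35 ± 1.94) and Pycr1 (1.65 ± 0.170) were again the lowest. Per mRNA, Psph had the highest footprint level of the 9, with a footprint to RNA ratio in PBS of 12.2 against a median of 3.47 over 9309 transcripts (percentile 95.4). The ratio was 10.6 for Pycr1, which rested on 11 and 15 RNA-seq reads, 8.56 for Psat1 and 2.85 for Mthfd2, the lowest of the 9 (percentile 39.1).

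After 21 h of Cis, 3 of the 9 enzymes had more footprints than in PBS, 1 had fewer, and 5 did not pass the test. Mthfd2, Shmt2 and Psph rose, and Mthfd1l fell (limma, adjusted p under 0.05 over the 10390 transcripts tested). Of all transcripts tested, 18.9% were called higher and 20.2% lower, so the counts among the 9 were within 2 genes of those shares. The same 4 genes passed in RNA-seq, in the same directions, where 11.6% and 12.2% of 9459 transcripts were called higher and lower and the counts were again within 2 genes of the shares. The median log2 change of the 9 was 0.01 for footprints and 0.12 for RNA-seq, against 0.01 and 0.02 over all transcripts. With 2 libraries against 2, the smallest p of an exact permutation test is 0.333, and the labels do not say that the libraries of a group came from separate cultures, so the p-values measure only the spread between these libraries, which may be technical. RNA and footprints per library are relative, since scaling sets the typical transcript of an assay near no change. A change in the number of cells cannot be told apart from one in RNA per cell. The study reported inhibited protein synthesis under Cis by puromycin incorporation, which scaled footprints cannot show. More or fewer footprints therefore means relative to the other transcripts.

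**Figure D1:**
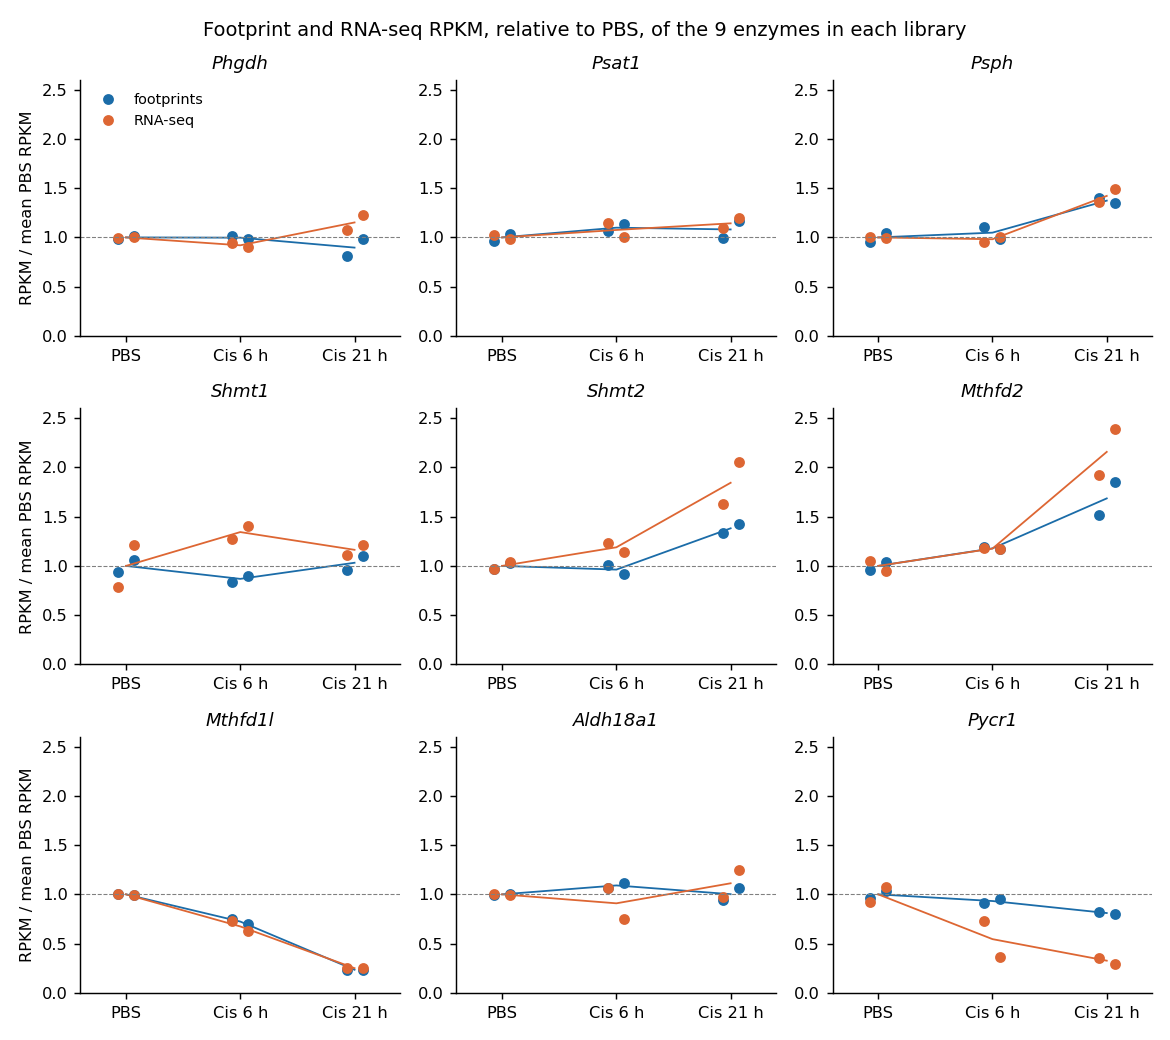
Each panel plots 1 enzyme gene, with RPKM divided by the mean of the 2 PBS libraries on the vertical axis and treatment on the horizontal axis. Points are single libraries (blue, footprints; orange, RNA-seq) and lines join group means (n = 2). Mthfd2, Shmt2 and Psph lie above 1 at 21 h in both assays, and Mthfd1l falls from PBS to 6 h to 21 h.

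Mthfd1l, the mitochondrial formate-producing synthetase at the end of the folate arm, showed the largest change of the 9. Its footprints were 65.3 and 64.5 RPKM in PBS, 48.6 and 45.4 at 6 h, and 15.3 and 15.2 at 21 h. The 3 groups did not overlap, and the 6 h libraries lay between the others. At 21 h the footprints were 4.25-fold lower than in PBS (log2 change -2.09, SE 0.11, limma adjusted p = 8.34e-06). The RNA went the same way, with 16.4 RPKM in both PBS libraries, 11.9 and 10.2 at 6 h, and 4.08 and 4.15 at 21 h, from 149 and 175 reads in PBS to 35 and 32 at 21 h. It was 3.86-fold lower at 21 h (log2 change -1.95, SE 0.17, adjusted p = 0.000121). The footprint to RNA ratio, the translational efficiency (TE), was 3.98 and 3.94 in PBS and 3.75 and 3.67 at 21 h, a log2 change of -0.14 with a 95% confidence interval of -0.54 to 0.26. Both footprints and RNA of Mthfd1l were therefore reduced by similar amounts, and a TE change within that interval was not detectable with these libraries.

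Mthfd1l is also the longest of the 9 genes on the genome. It spans 194.2 kb (percentile 96.5 of the transcripts tested), while the other 8 span 4.75 kb (Pycr1) to 38.2 kb (Aldh18a1). Among 1123 transcripts of genes over 100 kb, the median log2 footprint change at 21 h was -1.08 and 74.9% were called lower. Among 4741 under 20 kb, the median was 0.21 and 7.32% were called lower. Within 1.5 times the span of Mthfd1l, the median was -1.27 for footprints (587 transcripts, 80.1% called lower) and -1.04 for RNA-seq (506 transcripts, 61.9%). Mthfd1l itself changed by -2.09 and -1.95, further than these medians. Its fall had the direction of that of long genes generally, and the part of gene span in it was not tested.

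**Figure D2:**
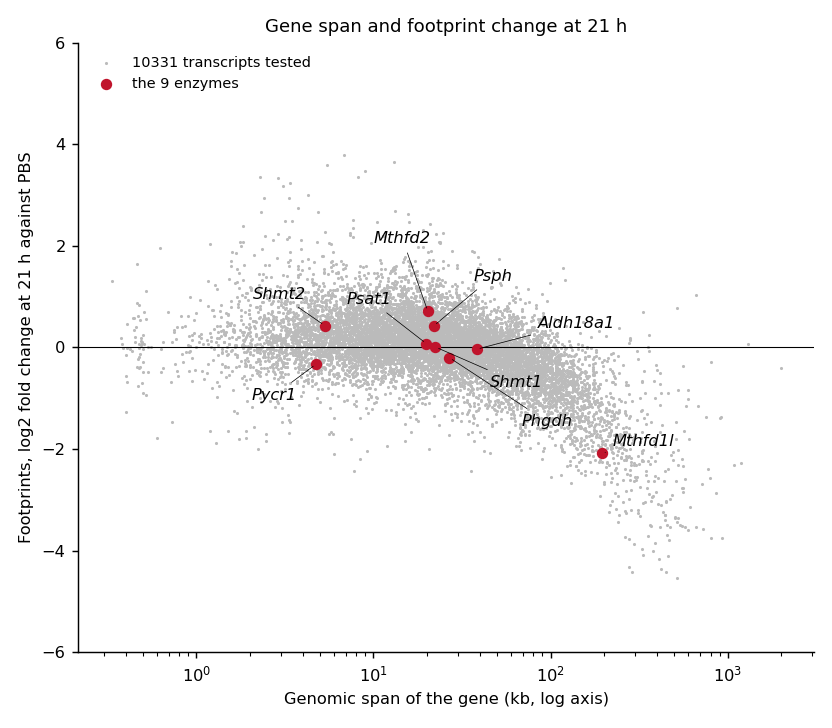
Genomic span of the gene (kb, log axis) is plotted against the log2 footprint change at 21 h against PBS, with grey points for transcripts tested and red points for the 9 enzymes. Mthfd1l, at 194.2 kb and -2.09, lies among other long genes with lower footprints, and the other 8 enzymes lie between 4.75 and 38.2 kb.

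Mthfd2, the mitochondrial methylenetetrahydrofolate dehydrogenase that acts just before Mthfd1l, changed in the opposite direction. Footprints were 88.8 and 95.8 RPKM in PBS, 109.6 and 108 at 6 h, and 140.3 and 171 at 21 h. All libraries treated with Cis were above both PBS libraries, and the 21 h libraries were the highest. The rise at 21 h was 1.63-fold (log2 change 0.71, SE 0.11, limma adjusted p = 0.00173). RNA was 34.5 and 30.9 RPKM in PBS, 38.7 and 38.2 at 6 h, and 63.0 and 78.0 at 21 h, again without overlap between PBS and Cis. It was 2.01-fold higher at 21 h (log2 change 1.01, SE 0.12, adjusted p = 0.000612). The 2 consecutive steps of the mitochondrial folate arm thus moved apart, from 92.3 and 64.9 RPKM in PBS to 155.5 ± 21.5 and 15.3 ± 0.0233 at 21 h. That divergence was not tested as a contrast of its own. The TE of Mthfd2 changed by -0.30 on the log2 scale (95% confidence interval -0.68 to 0.08, adjusted p = 0.513).

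Shmt2, the mitochondrial serine hydroxymethyltransferase that supplies this arm with one-carbon units, rose at 21 h. Its footprints were 109.9 and 117 RPKM in PBS, 115 and 104 at 6 h, and 151 and 162 at 21 h. PBS and 6 h overlapped, and both 21 h libraries lay above them (log2 change against PBS 0.43, SE 0.10, limma adjusted p = 0.00894). Without PBS replicate 1 the change was 0.36 and did not pass (adjusted p = 0.0523). RNA was 16.0 and 17.2 RPKM in PBS, 20.46 and 18.9 at 6 h, and 27.0 and 34.1 at 21 h, so that the groups did not overlap (21 h against PBS 0.77, SE 0.14, adjusted p = 0.00433). Shmt1, the cytosolic isozyme, had footprints of 35.0 and 39.3 RPKM in PBS, 31.1 and 33.5 at 6 h, and 35.8 and 40.9 at 21 h. At 21 h its log2 change was 0.01 (95% confidence interval -0.29 to 0.30) for footprints and 0.15 (-0.34 to 0.64) for RNA, which rested on 35 to 64 reads per library. The difference between the isozymes was not tested.

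Psph, the phosphatase that releases serine in the last step, was the only serine synthesis enzyme of the 3 to pass the test. Its footprints were 287 and 314 RPKM in PBS, 333 and 297 at 6 h, and 421 and 404 at 21 h, and the 21 h libraries lay above the other 4 (log2 change against PBS 0.42, SE 0.09, limma adjusted p = 0.00766). RNA was 25.1 and 24.7 RPKM in PBS, 23.8 and 25.0 at 6 h, and 33.7 and 37.0 at 21 h, with the same order (log2 change 0.41, SE 0.12, adjusted p = 0.0303). That RNA call was lost without any 1 of the 4 PBS and 21 h libraries (adjusted p 0.0754 to 0.141) and without a trend in the variance (0.0926), although the change stayed between 0.38 and 0.45. TE differed by 0.01 (95% confidence interval -0.29 to 0.30).

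Phgdh, the dehydrogenase that commits the glycolytic intermediate to serine, did not pass in either assay. Its footprints were 406 and 415 RPKM in PBS, 417 and 403 at 6 h, and 333 and 404 at 21 h. A single 21 h library (replicate 1) lay well below all others, and the log2 change at 21 h was -0.20 (95% confidence interval -0.43 to 0.03, limma adjusted p = 0.150). Without 21 h replicate 2 it was -0.33 and passed (adjusted p = 0.0302). Its RNA was 88.8 and 89.0 RPKM in PBS and 95.9 and 109 at 21 h (log2 change 0.12, adjusted p = 0.383). The aminotransferase Psat1, the middle step, had footprints of 396 and 425 RPKM in PBS, 436 and 466 at 6 h, and 409 and 478 at 21 h, with overlapping PBS and 21 h libraries. Its log2 change at 21 h was 0.07 (95% confidence interval -0.15 to 0.30) for footprints and 0.11 (-0.14 to 0.35) for RNA.

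The proline pair gave no call. Aldh18a1, which starts proline synthesis from glutamate, had footprints of 58.7 and 59.0 RPKM in PBS, 62.8 and 65.6 at 6 h, and 55.4 and 62.5 at 21 h. The 21 h libraries lay on both sides of PBS, with a log2 change of -0.04 (95% confidence interval -0.28 to 0.20) for footprints and 0.06 (-0.36 to 0.47) for RNA. Pycr1, the mitochondrial reductase of the final step, had footprints of 16.8 and 18.0 RPKM in PBS, 15.9 and 16.6 at 6 h, and 14.3 and 13.9 at 21 h. The 21 h libraries were the lowest, but the change did not pass (log2 change -0.33, SE 0.14, limma adjusted p = 0.0959). RNA of Pycr1 was at 11 and 15 reads in PBS, 7 and 4 at 6 h, and 4 and 3 at 21 h, with a log2 change at 21 h of -1.09 (SE 0.37, adjusted p = 0.0580) on the scale with a pseudocount of 0.5 RPKM, which understates changes at such levels. It passed without a trend in the variance (limma adjusted p = 0.0325) and with the 2 groups alone in the model (0.0470). Scaled RNA of Pycr1 was 1.55 and 1.76 RPKM in PBS, 1.28 and 0.62 at 6 h, and 0.57 and 0.45 at 21 h. The filter of a mean of 1 RPKM was thus met mainly through PBS, where the gene was highest, so these passes cannot support a fall.

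**Figure D3:**
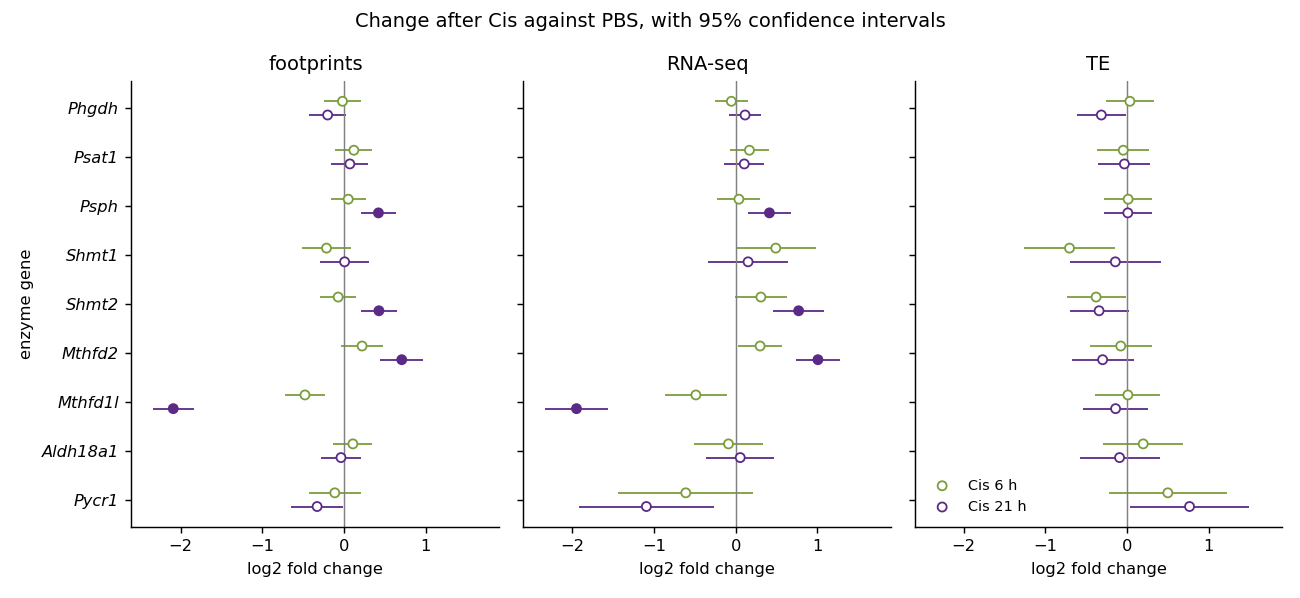
Log2 fold changes of the 9 enzymes against PBS are plotted for footprints, RNA-seq and TE, with Cis 6 h in green and 21 h in purple. Bars are 95% confidence intervals from limma and filled points passed an adjusted p of 0.05. Filled points appear at 21 h for Psph, Shmt2, Mthfd2 and Mthfd1l in footprints and RNA-seq, and none appear for TE.

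At 6 h, none of the 9 passed the test in footprints, where 1.05% of transcripts were called higher and 0.991% lower. Over all 10390 transcripts, limma gave 2217 an unadjusted p under 0.05, and limma's voom on the reads called 454 higher and 822 lower. Of the 9, 1 had such a p by limma and 1 was called by voom. That was Mthfd1l in both cases, with a log2 change of -0.48 (SE 0.11, adjusted p = 0.0628). This change also passed with a minimum mean of 5 RPKM (adjusted p = 0.0499), and with the 2 groups alone in the model (0.0415). In RNA-seq at 6 h limma called 0 of 9459 transcripts in either direction (0% higher and 0% lower, 1086 with an unadjusted p under 0.05), and 0 of the 9 by limma or voom. The unadjusted p was under 0.05 for Mthfd1l (log2 change -0.49), Mthfd2 (0.30) and Shmt1 (0.49), with adjusted p of 0.333, 0.401 and 0.433.

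Between 6 h and 21 h the same 4 genes moved in footprints, 3 up and 1 down, where 15.0% of transcripts were called higher and 15.7% lower. The footprints of Mthfd1l fell by 1.61 on the log2 scale (SE 0.11, limma adjusted p = 5.82e-05), and those of Shmt2, Mthfd2 and Psph rose by 0.50, 0.49 and 0.37 (adjusted p = 0.00644, 0.0139 and 0.0185). All 3 rises were lost without 6 h replicate 2 (adjusted p 0.0613, 0.0775 and 0.146), which left Mthfd1l alone. The call of Mthfd2 was also lost without 6 h replicate 1 (0.0637) and without 21 h replicate 2 (0.0674), and that of Psph without 21 h replicate 1 (0.0692). Without a trend in the variance, the calls of Mthfd2 and Psph were lost as well (0.0590 and 0.0849). In RNA-seq 2 of the 9 passed, Mthfd2 higher (0.71, adjusted p = 0.00542, lost without a trend in the variance at 0.0515) and Mthfd1l lower (-1.46, adjusted p = 0.000888), where 7.53% were called higher and 8.20% lower. Shmt2 and Psph were near the threshold (0.46 and 0.37, adjusted p = 0.0528 and 0.0588). Both passed at a minimum mean of 5 RPKM (adjusted p = 0.0411 and 0.0470), and Shmt2 also by voom (0.0256). Both also passed without scaling of the libraries (0.0219 and 0.0187), where 70.6% of all calls were higher, against 47.8% with scaling, and the median over all transcripts went from 0.01 to 0.15.

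No TE change of the 9 passed the test. At 21 h limma called 0.258% of 9312 transcripts higher and 0.150% lower in TE, and 0% in either direction at 6 h (712 with an unadjusted p under 0.05). Over all 9312 transcripts, 1183 had an unadjusted p under 0.05 by limma at 21 h. Of the 9, limma and voom called 0 at either time, and 2 had an unadjusted p under 0.05 at each time. At 6 h these were Shmt1, with a footprint to RNA ratio of 7.03 and 5.10 in PBS and 3.83 and 3.74 at 6 h (log2 change -0.71, adjusted p = 0.512), and Shmt2 (-0.38, adjusted p = 0.634). At 21 h they were Phgdh, with ratios of 4.57 and 4.67 in PBS and 3.47 and 3.71 at 21 h (-0.32, adjusted p = 0.367), and Pycr1, with 11.0 and 10.2 against 24.3 and 28.2 (0.76, adjusted p = 0.373). The Pycr1 ratios at 21 h rest on 4 and 3 RNA-seq reads, and the gene met the RNA filter mainly through its PBS values. Shmt2 had a TE change of -0.34 at 21 h (adjusted p = 0.424).

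**Figure D4:**
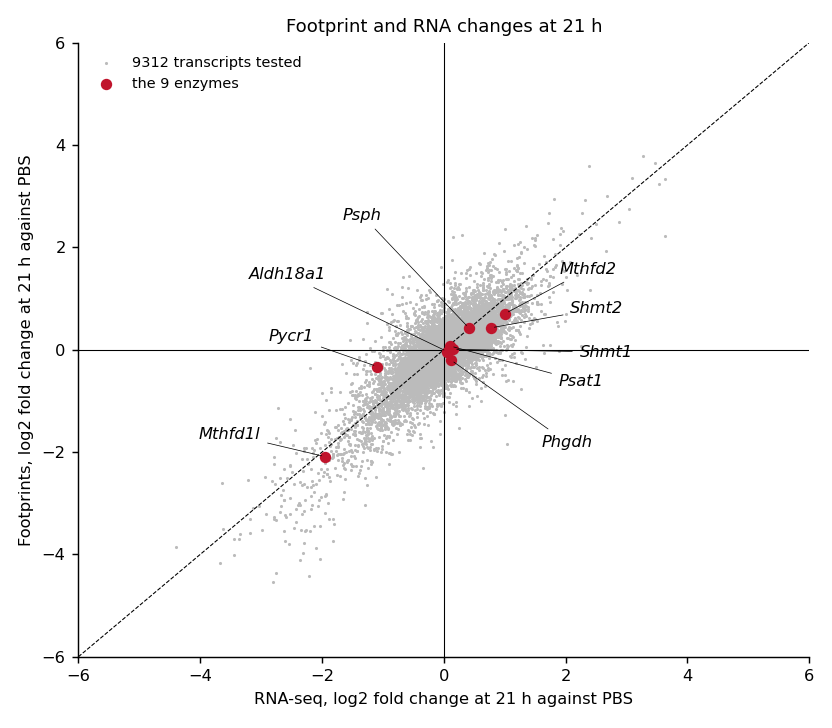
Log2 changes at 21 h against PBS are plotted for RNA-seq (horizontal axis) and footprints (vertical axis), with grey points for the 9312 transcripts tested in both assays, red points for the 9 enzymes and a dashed line where the changes are equal. Mthfd1l (-1.95 and -2.09) and Psph (0.41 and 0.42) lie close to the line, Mthfd2 (1.01 and 0.71) and Shmt2 (0.77 and 0.43) below it, and Pycr1 (-1.09 and -0.33) above it.

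Other genes of the pathways were counted from 4 lists, to be read against the 18.9% of all transcripts called higher and the 20.2% called lower in footprints at 21 h. Of serine and glycine genes, 0 of 8 tested were higher and 1 was lower (0% and 12.5%). That was Sfxn1, a mitochondrial serine carrier, whose footprints were 74.2 and 61.3 RPKM in PBS and 38.7 and 39.1 at 21 h (log2 change -0.82, SE 0.13, limma adjusted p = 0.00150). Its RNA fell too (-0.83, adjusted p = 0.00756), a call lost without PBS replicate 1 (adjusted p = 0.0587). The carrier and Mthfd1l, both of the mitochondrial serine route, were thus lower while Shmt2 and Mthfd2 were higher. The list's median change was 0.01.

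Of the folate cycle, 5 of 15 tested were higher in footprints at 21 h and 3 lower (33.3% and 20.0%, against 18.9% and 20.2% of all transcripts), with a median of -0.13. Among the lower genes were Mthfd2l, the paralog of Mthfd2 (-2.04, limma adjusted p = 0.0116), and the mitochondrial formyltetrahydrofolate dehydrogenase Aldh1l2 (-1.18, adjusted p = 0.0171). Both were at low levels. Mthfd2l had 50 and 26 footprint reads in PBS and 11 and 2 at 21 h, and Aldh1l2 71 and 49 against 21 and 13. The call of Mthfd2l was lost without PBS replicate 1 (adjusted p = 0.0868), and that of Aldh1l2 without either PBS library or 21 h replicate 2 (0.0523 to 0.108). Of the methionine cycle and transsulfuration, 2 of 9 were higher and 1 lower (22.2% and 11.1%, against 18.9% and 20.2% of all transcripts), with a median of 0.07. Cbs, the first enzyme of transsulfuration, went from 5.37 and 7.90 RPKM to 20.3 and 26.0 (log2 change 1.71, SE 0.24, adjusted p = 0.000978), while Ahcy, which hydrolyses S-adenosylhomocysteine, had a footprint change of 0.61 (adjusted p = 0.0293) and its relative Ahcyl1 one of -0.35 (adjusted p = 0.0124). The RNA change of Ahcy had the opposite sign and did not pass (-0.62, adjusted p = 0.136). In TE at 21 h, limma called 0 of the 8 tested genes of this list in either direction, against 0.258% higher and 0.150% lower over all transcripts. Cbs was not among the 8. Its RNA (2 and 12 reads in PBS, 19 and 12 at 21 h) was below the filter, so it was tested in neither RNA nor TE. The calls of Ahcy and Ahcyl1 were each lost without a trend in the variance (adjusted p = 0.0764 and 0.0591), without PBS replicate 2 (0.170 and 0.0636) and without 21 h replicate 2 (0.148 and 0.0506), and that of Ahcy also without a filter on low values (0.0622).

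Proline, ornithine and glutamate genes had 4 of 14 higher in footprints at 21 h and 0 lower (28.6% and 0%, against 18.9% and 20.2% of all transcripts), with a median of 0.27. Gpt2, a mitochondrial alanine aminotransferase, and Oat, which links ornithine to proline, rose in footprints by 1.19 and 0.51 (limma adjusted p = 0.000625 and 0.00205), while their RNA changes of 0.25 and 0.40 did not pass (adjusted p = 0.410 and 0.0846). Footprints of Gpt2 were 15.3 and 15.5 RPKM in PBS and 36.2 and 37.5 at 21 h, and those of Oat 98.6 and 101 against 147 and 146, without overlap in either. In TE at 21 h, limma called 0 of the 13 tested genes of this list in either direction, against 0.258% higher and 0.150% lower over all transcripts.

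**Figure D5:**
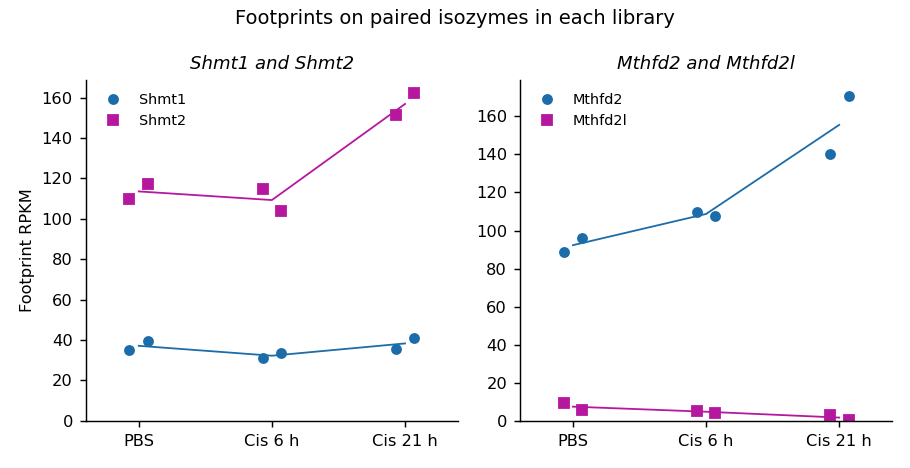
Footprint RPKM in each library is plotted for Shmt1 and Shmt2, and for Mthfd2 and Mthfd2l, with points for single libraries and lines through group means (n = 2). Shmt2 and Mthfd2 have the higher footprint level of each pair in PBS and rise by 21 h.

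Of 3 regulators known for these genes, Atf4 and Nfe2l2 rose in footprints at 21 h and Myc did not pass. Atf4 had 83.0 and 93.9 RPKM in PBS, 96.1 and 98.2 at 6 h, and 373 and 325 at 21 h (log2 change 1.94, SE 0.11, limma adjusted p = 1.16e-05). Its RNA rose by 0.99 (adjusted p = 0.000310) and its TE by 0.95 (adjusted p = 0.0362), a TE call that was lost without any 1 of 8 of the 12 libraries (adjusted p 0.0683 to 0.105) as well as without a trend in the variance (0.183), with only the groups compared in the model (0.0713) and without a filter on low values (0.0555). Nfe2l2, the regulator of antioxidant genes, rose by 0.42 in footprints (adjusted p = 0.00640) and 0.48 in RNA (adjusted p = 0.0412). The RNA call of Nfe2l2 was lost without any 1 of the PBS and 21 h libraries (adjusted p 0.0850 to 0.218), without a trend in the variance (0.117) and without a filter on low values (0.0738). Myc had a footprint change of -0.09 (adjusted p = 0.522) and an RNA change of 0.34 (adjusted p = 0.0877).

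The promoters of the 9 genes were searched for the response element that Atf4 binds with C/EBP partners, written TGATGNAA, on both strands from 250 bases before to 50 after the start. RefSeq lists 10 such promoters for them (2 for Psat1), and 1, that of Pycr1, held a match, against 3.97% of 32851 promoters overall and 2.23% of 10700 promoters of transcripts tested. The stretch is shown since it is the only match among the 9 enzymes. It lies on the minus strand at chr11:120643833-120643862 (GRCm38.p6), with the element, in capitals, beginning 103 bases before the start.
Pycr1: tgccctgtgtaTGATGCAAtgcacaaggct
The promoters of Mthfd2, Shmt2 and Psph held no match in this window. With 1 match among the 10 promoters, a link between the element and the changes at 21 h was not tested. Neither was the part of Atf4 in them. Elements in introns or further away were not searched.

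Some transcripts outside these lists changed most like single enzymes, by the root mean square difference of the 4 log2 changes against PBS (footprints and RNA-seq, 6 h and 21 h) over 9312 transcripts. Nearest to Phgdh were Cnot7, Pcgf3 and Tcea1 (0.0265 to 0.0367 on the log2 scale), to Shmt2 Msantd4, Frg1 and Plec (0.0386 to 0.0502), and to Aldh18a1 Atp5md, Xpc and Slc35a1 (0.0181 to 0.0409). Among the 9 themselves, Phgdh and Aldh18a1 were nearest (0.109), followed by Psat1 and Aldh18a1 (0.142), and Mthfd2 and Mthfd1l, which act in sequence, were the farthest apart (2.10). With all libraries, Phgdh, Psat1 and Aldh18a1 passed no test against PBS, with log2 changes from -0.20 to 0.17. Nearness to them is therefore nearness to little change.

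Summed over the 9 enzymes, footprints were 1464 and 1548 RPKM in PBS, 1569 and 1538 at 6 h, and 1576 and 1752 at 21 h. RNA summed to 253 and 251 RPKM in PBS, 260.1 and 243 at 6 h, and 299.8 and 348 at 21 h. In RNA-seq both 21 h libraries lay above the other 4. In footprints the order of the sums depended on the scale, since by reads not scaled by length (RPM) the 21 h libraries were the lowest and the highest of the 6 (1889 and 2139 RPM).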

How the data were processed

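The RPKM values were deposited by the authors, 1 file per library and without pooling, for 1 representative transcript of each gene. Per the submitters' processing notes, cutadapt, STAR and GRCm39 were used, with versions not given in the sources used here. RPKM times length gave whole reads for 100% of values (tolerance 0.01 reads), and so the depth. No molecular identifiers were used here, so read numbers cover counting error only. Transcripts not listed in a library were set to 0.

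Libraries of an assay were brought to a common scale by median-of-ratios factors (0.975 to 1.02 in footprints, 0.948 to 1.08 in RNA-seq). The filter was a mean of at least 1 RPKM, which left 10390 footprint transcripts, 9459 RNA-seq transcripts and 9312 with both assays, all 9 enzymes among each. The log2 of RPKM plus 0.5 entered limma 3.58.1 (R 4.3.3), where a model held all 3 groups of 1 assay and the variance prior followed the mean level (a trend), and TE changes were interaction terms fitted on the 12 libraries. Tests were two-sided, Benjamini-Hochberg adjusted, with a threshold of 0.05.

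The members and lists were chosen with earlier results of these data known. Named in each list were the 3 genes with the largest absolute footprint change at 21 h among those past the threshold, all 3 regulators, and for Phgdh, Shmt2 and Aldh18a1 the 3 nearest transcripts. Some results that this rule names are not reported here. Other settings tried were a pseudocount of 0.1 or 1, a minimum of 5 RPKM or none, no scaling, no trend, only the groups compared, the replicate number as a block, limma's voom on the whole reads and each library left out. Spans (15640 transcripts, 99.0%) and promoters came from RefSeq on GRCm38.p6 by symbol. Python 3.11.15, pandas 2.3.3, numpy 2.4.6 and matplotlib 3.10.9 were used.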

Additional observations from a re-analysis of the deposited data

Results flagged for a closer look

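Changes against PBS differed between 6 h and 21 h for 4 enzymes, by limma's test of 21 h against 6 h. In footprints the difference was -1.61 for Mthfd1l, 0.50 for Shmt2, 0.49 for Mthfd2 and 0.37 for Psph on the log2 scale. Of all transcripts, 15.0% were called higher and 15.7% lower there. In RNA-seq it was -1.46 for Mthfd1l and 0.71 for Mthfd2, where 7.53% of transcripts were called higher and 8.20% lower. As given above, the calls of the rises in footprints depended on single libraries. Both times share the PBS libraries, and with 2 libraries a group no library could be tested as an outlier.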

How the results depend on the processing

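With 2 libraries a group, and 3 to 15 RNA-seq reads for Pycr1, small changes could not be resolved. Of 9 enzymes, 0 passed in footprints at 6 h, and 1 passed (Mthfd1l) at a minimum of 5 RPKM, with only the groups compared and by voom. For 21 h against 6 h, 4 passed in footprints, but 2 without a trend, and 1 to 4 when each library was left out. In RNA-seq 2 passed, but 5 without scaling, 1 without a trend, and 4 of the 8 tested at a minimum of 5 RPKM. Over all RNA-seq transcripts, 1488 of 9459 passed, but 1748 of 9460 without scaling, 790 without a trend and 1261 of 5718 at 5 RPKM. In footprints 3188 of 10390 passed over all transcripts, and 2443 without a trend. Replicate numbers did not pair the libraries (correlations of deviations within 0.021 of 0). With the replicate number as a block, 4 of 9 passed at 21 h against PBS in footprints, where 3869 of 10390 transcripts were called. In RNA-seq 4 of 9 passed, where 2185 of 9459 were called. Both counts of the 9 were as without the block, and the RNA call of Nfe2l2 at 21 h was lost with it (limma adjusted p = 0.0562). In all, 73 fold changes by gene gave 1137 recomputed values, of which 45 lost a call, 15 gained one and 19 changed sign, none of them called.

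Without scaling, the change of Psph became -0.027 for RNA at 6 h and -0.039 for TE at 21 h. Leaving out each library, changes ran across 0 for footprints at 6 h from -0.061 to 0.012 (Phgdh), -0.039 to 0.14 (Psph) and -0.14 to 0.00012 (Shmt2), and at 21 h from -0.12 to 0.061 (Aldh18a1), -0.034 to 0.20 (Psat1) and -0.098 to 0.11 (Shmt1). They did so for TE at 21 h from -0.079 to 0.089 (Psph), and for RNA from -0.33 to 0.16 at 6 h and -0.079 to 0.20 at 21 h (Aldh18a1), and from -0.13 to 0.43 at 21 h (Shmt1). The calls of Mthfd1l and Mthfd2 at 21 h against PBS held in every setting run, in both assays.

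Counts over all transcripts moved by over 1.5 times for footprints at 6 h, from 212 to 17 without a filter, 341 at 5 RPKM, 0 without a trend (2217 with an unadjusted p under 0.05), 442 with only the groups compared, 37 with the block, 1276 by voom, and 0 to 398 leaving out each library. For TE at 21 h 38 became 8, 67, 0, 3, 23 and 152 under the same settings, and 2 to 43 leaving out each library. For RNA-seq, voom called 228 at 6 h against 0, and at 21 h against 6 h 1488 became 918 without a filter and 790 without a trend. Leaving out each library gave 1059 to 2310 for RNA-seq at 21 h against PBS (2248 with all), and for 21 h against 6 h 684 to 1201 in RNA-seq and 1602 to 2986 in footprints (3188 with all). At 6 h voom called 14 TE changes against 0.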
